A study of Homo sapiens with 15 samples.

Results

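The genes described here build the elastic fiber and its microfibril scaffold: ELN (elastin), the fibrillins FBN1 and FBN2, the fibulins FBLN1, FBLN2, FBLN5 and EFEMP2, and the microfibril-associated genes MFAP2, MFAP4 and MFAP5. They were chosen by gene symbol, with earlier results of these data known. These are 10 of the 17138 genes listed in the deposited tables. All 10 are in the table of MRC5 cells, which lists 16382 genes. In the table of H196 cells, which lists 16076 genes, 9 of them were found, and MFAP4 was not analysed in H196 cells here.

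The study paired a line of human lung fibroblasts, MRC5, with 2 lines of small cell lung cancer (SCLC), the neuroendocrine H69 and the non-neuroendocrine H196. MRC5 cells were cultured alone (MRC5_Mo) or shared their medium with H69 (MRC5_coH69) or H196 cells (MRC5_coH196), and H196 cells were cultured alone (H196_Mo) or with MRC5 cells (H196_Co), the partners being kept apart by a porous transwell membrane. RNA of 3 libraries per group was sequenced, 15 in all, and the labels do not say whether the 3 came from separate cultures, so p-values measure only the spread between these libraries, which may be technical. Each cell type is a single established line, and no other treatment is given for any group. The paper's methods name RPMI medium for the SCLC lines and MEM for MRC5 cells. They do not say which was used in co-culture, so a change of medium cannot be told apart from the partner.

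An elastic fiber is a core of cross-linked elastin laid on a scaffold of microfibrils, which are polymers of fibrillin. Fibulins bridge tropoelastin, the soluble elastin precursor, with fibrillin and with the lysyl oxidases that cross-link it, and the microfibril-associated proteins decorate the scaffold. In the lung these fibers give elastic recoil, fibroblasts are among the cells that make them, and microfibrils also hold latent TGF-β in the matrix.

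By the tables' coordinates in GRCh38.p13, ELN (gene ID 2006) spans chr7:74027772-74070180. FBN1 (gene ID 2200) spans chr15:48408313-48645709 and FBN2 (gene ID 2201) spans chr5:128257909-128538245. Among the fibulins, FBLN1 (gene ID 2192) spans chr22:45502883-45601135, FBLN2 (gene ID 2199) chr3:13549125-13721635, FBLN5 (gene ID 10516) chr14:91869411-91947987 and EFEMP2 (gene ID 30008) chr11:65866441-65872800. MFAP2 (gene ID 4237) lies at chr1:16974502-16981583, MFAP4 (gene ID 4239) at chr17:19383445-19387190 and MFAP5 (gene ID 8076) at chr12:8639728-8669012. The genes thus lie on 10 different chromosomes, and every count below covers a whole gene, not a single exon or transcript.

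The 250 bases before the start of transcription are shown for 3 genes, read from RefSeq (GRCh38.p14) on the strand of the gene, from 5′ to 3′. FBN1 and FBLN2 are shown because they moved furthest in opposite directions in MRC5_coH196, and FBN2 because it is the second fibrillin. The FBN1 window is chr15:48644971-48645220 on the minus strand. It lies inside the FBN1 span given above, which reaches further upstream than the start used here. The FBN2 window is chr5:128538246-128538495 on the minus strand. The FBLN2 window, of the first of its 2 listed starts, is chr3:13548875-13549124 on the plus strand. The window of the second start of FBLN2, not printed, holds ACGTG 1 time. Capitals mark every match on either strand of ACGTG, a form of the core of the hypoxia response element. A printed window wholly in lower case holds no ACGTG. Other forms of that core, such as GCGTG, were neither searched for nor marked, so lower case does not mean that the core is absent.
FBN1: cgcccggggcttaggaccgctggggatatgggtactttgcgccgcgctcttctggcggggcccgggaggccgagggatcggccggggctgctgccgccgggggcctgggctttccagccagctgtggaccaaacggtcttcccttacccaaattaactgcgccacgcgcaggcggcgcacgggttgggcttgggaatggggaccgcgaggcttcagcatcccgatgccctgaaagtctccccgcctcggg
FBN2: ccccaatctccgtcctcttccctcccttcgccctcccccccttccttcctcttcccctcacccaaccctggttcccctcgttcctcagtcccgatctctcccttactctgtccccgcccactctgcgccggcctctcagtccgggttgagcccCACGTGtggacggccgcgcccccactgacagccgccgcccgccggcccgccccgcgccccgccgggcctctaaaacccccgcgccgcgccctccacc
FBLN2: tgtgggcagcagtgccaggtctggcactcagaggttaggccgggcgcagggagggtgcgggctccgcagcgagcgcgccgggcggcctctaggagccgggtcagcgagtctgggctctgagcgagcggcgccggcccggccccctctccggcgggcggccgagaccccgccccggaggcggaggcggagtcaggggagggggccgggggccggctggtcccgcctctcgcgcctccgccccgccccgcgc
The capitals in FBN2 read the same on both strands, so they hold ACGTG once on each strand with the matches overlapping. ACGTG was found in 18.5% of the 35116 promoter windows of this length. GGGCGG, the GC box bound by Sp1, was counted on both strands in the same windows and does not overlap ACGTG in these sequences. It was found 5 times in the printed FBLN2 window and not in the other, 3 times in FBN2 and not in FBN1, and 42.6% of all windows hold it. GC content was 69.6% in FBN1, 72.8% in FBN2 and 80.4% in the printed FBLN2 window, against a median of 58.0% over all windows. A start was listed for 7 of the 10 genes, and none for ELN, MFAP4 and MFAP5. These matches describe the letters only.

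Library totals ran from 18476890 to 19170560 counts in MRC5 cells and from 16073597 to 17358349 in H196 cells. At these depths 3 counts, taken as the limit that a count of 0 allows, correspond to 0.156 to 0.162 and 0.173 to 0.187 CPM (counts relative to the library total), for counting error only. All 9 fibroblast markers examined, among them COL1A1, DCN and PDGFRB, had at least 1 FPKM (fragments per kilobase of gene, scaled to library size) in every MRC5 library. In H196 cells THY1 was not analysed and 6 of the other 8 were under 0.1 FPKM in both groups. The partner's RNA was looked for through 159 genes abundant in MRC5_Mo and near absent from H196_Mo. Their summed level in H196_Co was 0.0506% to 0.0563% of that in MRC5_Mo, against 0.0416% to 0.0428% in H196_Mo. For 99 genes marking H196 cells the share was 0.297% to 0.777% in MRC5_coH196, 0.118% to 0.130% in MRC5_Mo and 0.108% to 0.134% in MRC5_coH69. No library of H69 cells was available to choose markers from, so RNA of the H69 partner in MRC5_coH69 was not looked for.

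FPKM, which corrects for gene length, was used to compare levels between genes. In MRC5_Mo the most abundant of the 10 was EFEMP2, which binds lysyl oxidase and tropoelastin, at 233 ± 2.59 FPKM (SD, n = 3). It was followed by FBLN1 with 80.1 ± 3.24, FBLN5 with 77.4 ± 3.19, MFAP4 with 69.7 ± 6.11 and FBN1 with 67.9 ± 0.29 FPKM. FBN2 with 26.8 ± 1.44, ELN with 25.2 ± 5.09, FBLN2 with 21.3 ± 0.17 and MFAP2 with 18.4 ± 0.90 FPKM formed a lower tier. MFAP5 stood far below, with 10 to 15 counts in every MRC5 library and 0.26 FPKM in MRC5_Mo. EFEMP2 remained the first and MFAP5 the last in both co-cultures. The 10 genes summed to 612.77 to 630.75 FPKM in MRC5_Mo libraries, to 664.21 to 709.49 in MRC5_coH69 and to 626.12 to 675.70 in MRC5_coH196.

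H196 cells carried a small part of this set. FBLN1 led with 31.1 ± 0.95 FPKM in H196_Mo, or 50.4% of the summed level, ahead of EFEMP2 with 11.8 ± 0.74 and MFAP2 with 9.69 ± 1.98. FBN1 was at 3.71 ± 0.09, FBLN2 at 3.40 ± 0.40 and FBN2 at 1.73 ± 0.15 FPKM. FBLN5, which tethers elastin to cells through integrins, had only 5 to 13 counts in the 6 H196 libraries, whereas it had 3287 to 3925 counts in the 9 MRC5 libraries. ELN had 0, 0 and 1 count in H196_Mo and 0, 2 and 0 in H196_Co, all at or under the limit of 3 counts. MFAP5 had 1, 3 and 1 count in H196_Mo and 3, 4 and 0 in H196_Co. The 9 listed genes summed to 59.27 to 63.03 FPKM in H196_Mo and to 73.74 to 77.98 in H196_Co. No test was made between the cell lines, since their FPKM tables were made separately.

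**Figure D1:**
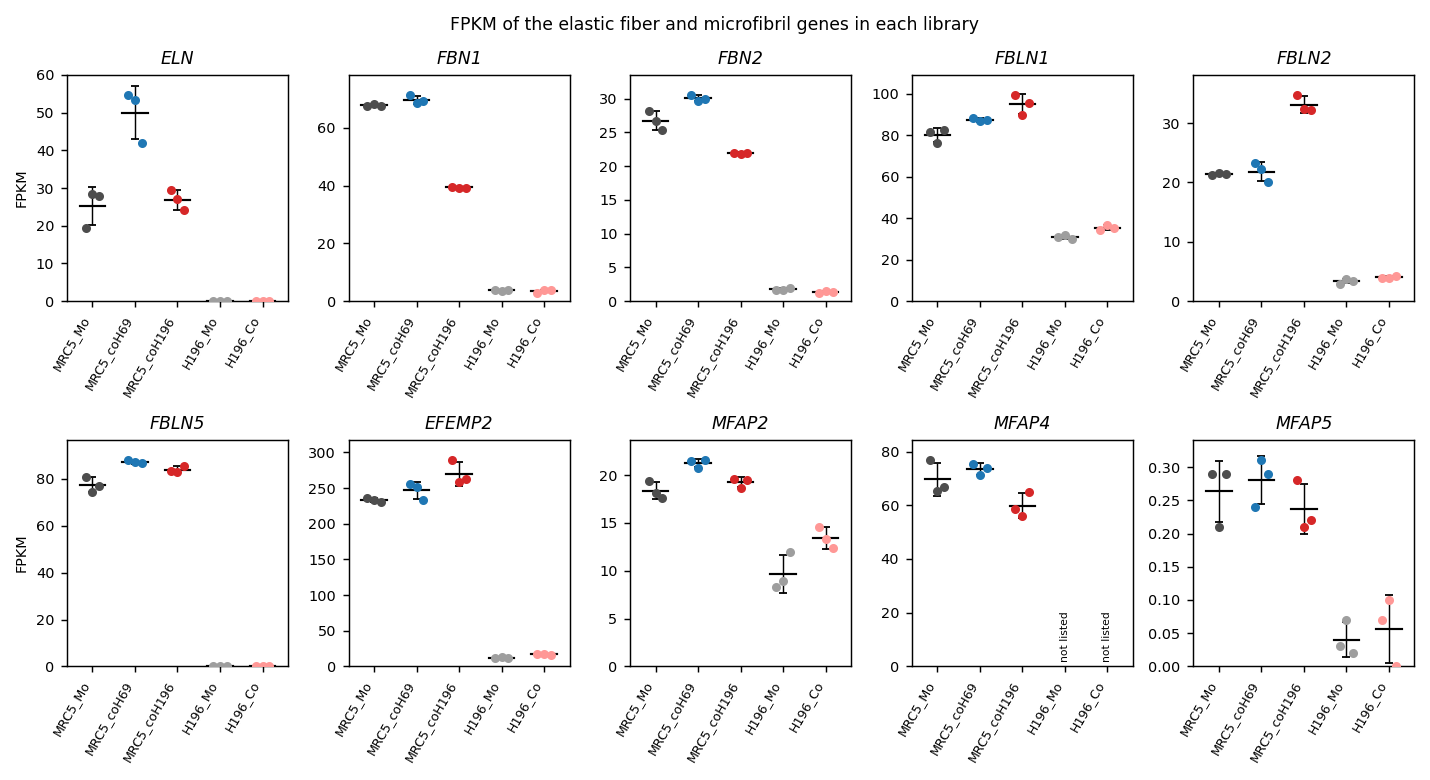
FPKM of each of the 10 genes (one panel each, own linear axis from 0) in the 3 libraries of each group as points, with the mean as a line and the SD as bars; MFAP4 was not listed for H196 cells. ELN stands apart in MRC5_coH69, FBN1 and FBN2 are lowest among MRC5 groups in MRC5_coH196, and FBLN1, EFEMP2 and MFAP2 are the genes with the highest levels in H196 cells.

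Across the groups the order of levels differed from gene to gene. FBN1, FBN2, FBLN5, MFAP2, MFAP4, MFAP5 and ELN had their highest mean FPKM in MRC5_coH69, and FBLN1, FBLN2 and EFEMP2 in MRC5_coH196. Neighbors in the order overlapped, so their order is not settled, for ELN between MRC5_coH196 and MRC5_Mo and for FBLN2 and EFEMP2 between MRC5_coH69 and MRC5_Mo. The same held for MFAP2 between MRC5_coH196 and MRC5_Mo and for MFAP4 between MRC5_coH69 and MRC5_Mo. All neighboring MRC5 groups overlapped for MFAP5. FPKM does not carry the TMM scaling between libraries that the tests below use. With that scaling the order of the co-cultures was the other way for FBLN5 and MFAP2, so it depends on the scaling. Mean CPM was then 198 in MRC5_coH69 and 213 in MRC5_coH196 for FBLN5, and 15.6 and 15.9 for MFAP2. Between the H196 groups the libraries overlapped for ELN, FBN1, FBLN5 and MFAP5.

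Which of these genes respond when fibroblasts share medium with H196 cells was asked by comparing MRC5_coH196 with MRC5_Mo. FBN1, the main scaffold protein of the microfibril, fell to 0.65 of its level, while the fibulins FBLN2, FBLN1, EFEMP2 and FBLN5 rose by 1.75, 1.34, 1.304 and 1.22 times. In edgeR's quasi-likelihood test, with Benjamini-Hochberg adjustment over 12819 genes, 8 of the 10 had an adjusted p under 0.05, 6 higher and 2 lower. The background is 74.3% of all tested genes, 37.2% higher and 37.1% lower, so 8 of 10 is a share near the background. A gene that was called and also moved by more than 0.58 on the log2 scale in either direction was counted as a DEG, and 2 of the 10, FBN1 and FBLN2, were DEGs against 31.9% of all genes. The median log2 fold change was 0.25 for the 10 genes and 0.00 for all tested genes. In bulk RNA, a lower level in every cell and a smaller number of cells at full level cannot be told apart.

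FBN1 had 735, 739 and 734 CPM, scaled by TMM factors, in the MRC5_Mo libraries and 488, 471 and 486 in the MRC5_coH196 libraries. All MRC5_coH196 libraries were below all others, and libraries of a group differed little. Its log2 fold change was -0.61 ± 0.04 (SE), with an adjusted p of 4.19e-13 in edgeR's test. FBN2, a fibrillin known mainly from developing tissue, had 287, 271 and 258 CPM in MRC5_Mo and 253, 246 and 255 in MRC5_coH196. The groups did not overlap but came close, and the log2 fold change was -0.11 ± 0.04 (adjusted p = 0.0208 in edgeR's test). FBN2 lost its call without MRC5_Mo replicate 1 (-0.07), MRC5_Mo replicate 2 (-0.12) or MRC5_coH196 replicate 2 (-0.10). Markers of cell type moved in this comparison in both directions. Of the 9 fibroblast markers, COL1A1 (-1.57), COL1A2 (-0.56) and COL3A1 (-2.09 on the log2 scale) fell, and PDGFRB (0.67), PDGFRA (0.33) and LUM (0.30) rose. DCN (0.15) and FAP (0.15) were called higher, but their libraries overlapped, and THY1 at -0.07 was not called. Mean FPKM of DCN was 202 in MRC5_Mo and 198 in MRC5_coH196, and that of FAP 32.2 and 32.0, so their direction depends on the scaling. With the collagens the summed level of the 9 was 2543 to 2692 FPKM in MRC5_coH196, against 5147 to 5735 in MRC5_Mo and 5923 to 6113 in MRC5_coH69. Of 5 epithelial markers, the keratins KRT19 (0.99) and KRT8 (0.83) rose and KRT18 (-0.25) fell, CDH1 was under 0.1 FPKM and EPCAM at 4 to 6 counts, and the 5 summed to 108 to 114 FPKM in MRC5_coH196 against 106 to 112 in MRC5_Mo. Among the endothelial and smooth muscle markers DES rose (0.85, at a mean of 1.55 CPM) and MYH11 fell (-1.71, at 0.74 CPM). VWF at -0.78 was not called, and PECAM1 and CDH5 were under 0.1 FPKM. The part of these markers in the results of MRC5_coH196 was not tested.

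FBLN2, a fibulin that binds fibrillin and tropoelastin, had 78.9, 80.1 and 79.6 CPM in MRC5_Mo and 147, 134 and 137 in MRC5_coH196. The groups were wide apart, and the log2 fold change was 0.81 ± 0.05 (adjusted p = 6.92e-13 in edgeR's test). FBLN1, a fibulin of basement membranes and elastic fibers, had 181, 171 and 181 CPM in MRC5_Mo and 251, 222 and 243 in MRC5_coH196. It rose by a log2 fold change of 0.42 ± 0.05 (adjusted p = 8.82e-09). EFEMP2 had 374, 368 and 365 CPM in MRC5_Mo and 520, 452 and 472 in MRC5_coH196, and its log2 fold change was 0.38 ± 0.05 (adjusted p = 1.36e-07). FBLN5 had 182, 167 and 174 CPM in MRC5_Mo and 213, 207 and 219 in MRC5_coH196, and it rose by 0.29 ± 0.04 on the log2 scale (adjusted p = 1.72e-06). For all 4 fibulins every MRC5_coH196 library was above every MRC5_Mo library, and each call was kept when any 1 library was left out.

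ELN, which encodes the elastic core itself, had 56.9, 83.0 and 82.1 CPM in MRC5_Mo and 98.3, 88.0 and 80.8 in MRC5_coH196. The groups overlapped, and the first MRC5_Mo library was below the other two. The log2 fold change of 0.27 ± 0.10 passed the threshold (adjusted p = 0.0244 in edgeR's test). It was 0.11 (adjusted p = 0.266) without MRC5_Mo replicate 1 and 0.19 (adjusted p = 0.154) without MRC5_coH196 replicate 1, and DESeq2 gave 0.27 with an adjusted p of 0.178. MFAP2, a small glycoprotein that binds fibrillin, had 14.3, 13.2 and 12.9 CPM in MRC5_Mo and 16.4, 15.1 and 16.2 in MRC5_coH196, a log2 fold change of 0.24 ± 0.08 (adjusted p = 0.00666). MFAP4, which binds tropoelastin and fibrillin, had 114, 96.5 and 99.1 CPM in MRC5_Mo and 98.7, 91.7 and 109 in MRC5_coH196. These overlapped, and its log2 fold change of -0.05 ± 0.06 did not pass the test (adjusted p = 0.496). MFAP5, at 10 to 14 counts in both groups, gave 0.04 ± 0.32 (adjusted p = 0.92), and a change of this size was not detectable at this depth.

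How the libraries are scaled bears on the small changes. Over all genes, the median in this comparison was shifted by -0.18 when library totals alone were used and by -0.16 in limma on log2(FPKM + 1), and the direction of each called gene stayed the same under both. With library totals ELN was at 0.09 (adjusted p = 0.414) and MFAP2 at 0.06 (adjusted p = 0.447), neither past the threshold, and MFAP4 was past it at -0.22 (adjusted p = 0.0013). FBN1 at -0.79, FBN2 at -0.29, FBLN2 at 0.63, FBLN1 at 0.25, EFEMP2 at 0.21 and FBLN5 at 0.11 kept their calls with library totals. That scaling thus called 4 of the 10 higher and 3 lower, where 3467 genes of the table were called higher and 6295 lower, against 4765 and 4757 with TMM. Of the 10 genes, 7 had groups that did not overlap in TMM-scaled CPM, where 75.5% of all tested genes did not overlap.

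With H69 cells as the partner, ELN was the gene that stood out. ELN had 162, 159 and 123 CPM in MRC5_coH69, against 56.9, 83.0 and 82.1 in MRC5_Mo. Each MRC5_coH69 library was above each MRC5_Mo library, and the mean level was 1.999 times as high, a log2 fold change of 1.0 ± 0.10 (adjusted p = 2.44e-07 in edgeR's test). It ranged from 0.84 to 1.11 when 1 library was left out and kept its call each time. In all, 3 of the 10 genes were called, all higher, against a background of 6.70% of the 12819 genes, 3.78% higher and 2.93% lower. With library totals the 3 kept their calls, while over all genes 423 were called higher and 504 lower, against 484 and 375 with TMM. ELN was the only DEG of the 10, where 0.554% of all genes were DEGs (0.421% higher and 0.133% lower).

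FBN2 had 315, 307 and 305 CPM in MRC5_coH69, all above MRC5_Mo, a log2 fold change of 0.18 ± 0.04 (adjusted p = 0.00884 in edgeR's test). FBLN5 had 200, 199 and 195 CPM, also above all MRC5_Mo libraries, with the same log2 fold change of 0.18 ± 0.04 (adjusted p = 0.0103). Both calls were lost without MRC5_Mo replicate 2 (0.18 for FBN2 and 0.15 for FBLN5), MRC5_Mo replicate 3 (0.14 and 0.18) or MRC5_coH69 replicate 1 (0.17 and 0.17), when 1 of the 10 genes was called. In limma on log2(FPKM + 1) FBN2 at 0.16 was not called (adjusted p = 0.0655) and MFAP2 at 0.20 was (adjusted p = 0.0372), and the same calls were made with a pseudocount of 0.1. FBLN1 had 195 to 198 CPM in MRC5_coH69 and a log2 fold change of 0.14 ± 0.05 (adjusted p = 0.0675), which passed the threshold without MRC5_coH196 replicate 2 (0.14, adjusted p = 0.0323). In edgeR's test MFAP2 at 0.21 ± 0.08 (adjusted p = 0.0987) and FBN1 at 0.05 ± 0.04 (adjusted p = 0.472) did not pass. EFEMP2 at 0.09, MFAP4 at 0.09, FBLN2 at 0.05 and MFAP5 at 0.12 did not pass either, with adjusted p-values from 0.31 to 0.885. The libraries did not overlap for 6 of the 10 genes, against 25.7% of all tested genes. The markers LUM (0.42), FAP (0.38), COL1A1 (0.18), PDGFRB (0.15), KRT18 (0.40), KRT8 (0.31) and MYH11 (0.89, at under 1 CPM on average) were also called higher with H69, and their part was not tested.

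**Figure D2:**
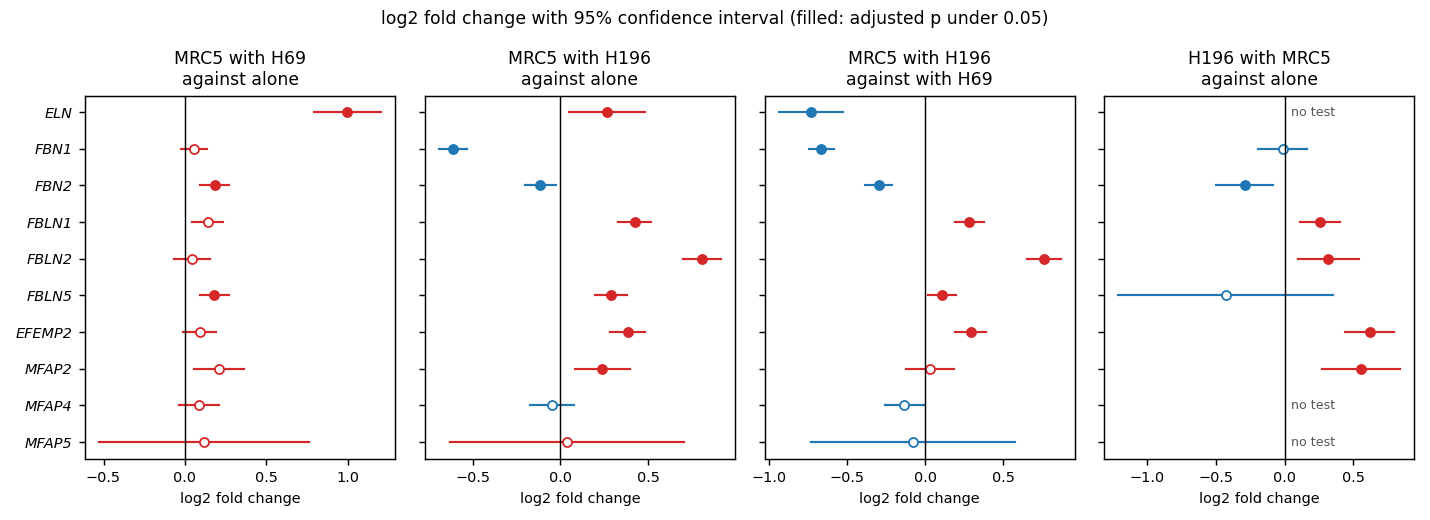
log2 fold change of each gene (points) with its 95% confidence interval (lines) in 4 comparisons, from edgeR, red above 0 and blue below, filled where the adjusted p was under 0.05. ELN is the furthest to the right with H69 (1.0), FBN1 is the furthest to the left with H196 (-0.61) and FBLN2 the furthest to the right (0.81).

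The partners were set against each other directly, MRC5_coH196 against MRC5_coH69. Both fibrillins and elastin were lower with H196 than with H69, and FBLN1, FBLN2 and EFEMP2 were higher. The log2 fold changes were -0.73 ± 0.10 for ELN (adjusted p = 4.67e-07 in edgeR's test), -0.67 ± 0.04 for FBN1 (adjusted p = 9.98e-14) and -0.30 ± 0.04 for FBN2 (adjusted p = 1.21e-06). FBLN2 was higher by 0.76 ± 0.05 (adjusted p = 2.56e-12), EFEMP2 by 0.29 ± 0.05 (adjusted p = 8.99e-06) and FBLN1 by 0.28 ± 0.05 (adjusted p = 5.52e-06). For these 6 genes no library of one group reached into the other. FBLN5 was called at 0.11 ± 0.04 (adjusted p = 0.0285), but it turned to -0.05 with library totals and in limma. It also lost the call without MRC5_coH69 replicate 2 (0.11), MRC5_coH69 replicate 3 (0.10) or MRC5_coH196 replicate 3 (0.09). MFAP2 at 0.03 and MFAP5 at -0.08 were not called. With library totals MFAP2 was at -0.13 and not called (adjusted p = 0.124 in edgeR's test). In limma MFAP2 was called lower, at -0.13 on log2(FPKM + 1) (adjusted p = 0.0206) and -0.14 on log2(FPKM + 0.1) (adjusted p = 0.0209). MFAP4 at -0.13 (adjusted p = 0.0517) passed the threshold without MRC5_Mo replicate 1 (-0.13) or MRC5_coH196 replicate 3 (-0.20), and was at -0.07 without MRC5_coH196 replicate 2. It was also called with library totals (-0.29, adjusted p = 7.05e-05 in edgeR's test), in limma (-0.30 with either pseudocount), with no filter (-0.14) and with only the groups compared (-0.13). Thus 7 of 10 genes were called, 4 higher and 3 lower, where 72.3% of all genes were called, 35.7% higher and 36.6% lower, and library totals gave 3 higher and 4 lower. ELN, FBN1 and FBLN2 were DEGs, as were 28.2% of all genes, and in 7 of the 10 the groups did not overlap, against 73.1% of all genes. These 3 comparisons share libraries, so their values stand side by side and are not independent of each other.

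The tumor cells were compared in the other direction, H196_Co against H196_Mo. EFEMP2 and MFAP2 rose by 1.54 and 1.47 times, FBLN1 and FBLN2 by 1.196 and 1.25 times, and FBN1 did not pass the test. FBN2 was lower at 0.82 times. Of the 10 genes, 7 had enough counts for the test, in which 12806 genes were tested. 5 were called, 4 higher and 1 lower, against a background of 19.8%, 12.0% higher and 7.78% lower. EFEMP2 alone was a DEG, as were 3.86% of all genes (3.26% higher and 0.601% lower). The median log2 fold change of the 7 was 0.26 and that of all genes 0.00.

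EFEMP2 had 17.8, 20.6 and 18.7 CPM in H196_Mo and 29.2, 30.2 and 28.4 in H196_Co. The groups were well apart, and the log2 fold change was 0.62 ± 0.09 (adjusted p = 3.11e-05 in edgeR's test). MFAP2 had 5.96, 6.78 and 9.06 CPM in H196_Mo and 11.7, 10.4 and 9.97 in H196_Co. The third H196_Mo library lay close to the co-culture, and the log2 fold change was 0.56 ± 0.14 (adjusted p = 0.00761). Both calls were kept with each library left out, between 0.57 and 0.68 for EFEMP2 and between 0.43 and 0.75 for MFAP2. Without H196_Mo replicate 1 the log2 fold change of EFEMP2 was under the limit of a DEG and none of the 10 genes was one, and without H196_Mo replicate 3 or H196_Co replicate 3 there were 2. By library totals EFEMP2 was 9.01 CPM higher in H196_Co, which is 2.34% of its level in MRC5_Mo, and the highest share of MRC5 markers found in H196_Co, taken of that level, is 0.217 CPM. The part of RNA from the partner in this rise was not tested, nor that of KRT8 (0.43) and KRT18 (0.29), which also rose in H196_Co.

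FBLN1 had 64.5, 69.8 and 65.3 CPM in H196_Mo and 78.3, 81.3 and 79.1 in H196_Co, a log2 fold change of 0.26 ± 0.07 (adjusted p = 0.0136 in edgeR's test). FBLN2 had 11.02, 14.4 and 13.2 CPM in H196_Mo and 15.7, 15.5 and 17.1 in H196_Co, or 0.32 ± 0.11 (adjusted p = 0.0397). FBN2 had 16.8, 17.1 and 19.3 CPM in H196_Mo and 13.9, 16.1 and 13.6 in H196_Co, or -0.29 ± 0.10 (adjusted p = 0.0459). The groups did not overlap for these 3 genes, but their calls were close to the threshold. Without H196_Mo replicate 3 or H196_Co replicate 3 all 3 calls were lost (FBLN1 at 0.24 and 0.26, FBLN2 at 0.34 and 0.27, FBN2 at -0.22 and -0.25), leaving 2 of the 10 genes called. FBLN2 also lost its call without H196_Mo replicate 1 (0.22) or H196_Co replicate 1 (0.33), and FBN2 without H196_Mo replicate 2 (-0.32) or H196_Co replicate 1 (-0.26). With library totals, which moved the median of all genes by -0.08, FBLN1 at 0.18 (adjusted p = 0.0673) and FBLN2 at 0.24 (adjusted p = 0.0942) were not called, leaving 2 genes higher and 1 lower. Over all genes that scaling called 1024 higher and 2067 lower, against 1542 and 996 with TMM. FBN1 had 41.1, 40.1 and 41.6 CPM in H196_Mo and 34.7, 43.6 and 43.3 in H196_Co, which overlap, and gave -0.01 ± 0.09 on the log2 scale (adjusted p = 0.927). FBLN5, at a few counts per library, gave -0.43 ± 0.37 (adjusted p = 0.45). In 5 of the 7 tested genes the groups did not overlap, against 37.2% of all tested genes.

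Whether fibroblasts and H196 cells responded differently to each other was tested by an interaction term in one model of the 4 groups, with 49.9% of 13531 genes called, 23.8% higher and 26.2% lower. Of the 9 genes tested, 3 were called, FBN1, FBLN2 and EFEMP2, a share below that of all genes. FBN1 also differed by more than 0.58, as did 24.5% of all genes. The FBN1 change in fibroblasts was lower than that in H196 cells by a log2 difference of -0.62 ± 0.10 (adjusted p = 6.23e-06 in edgeR's test), with -0.61 in MRC5 cells beside -0.01 in H196 cells. The FBLN2 change was larger in fibroblasts by 0.47 ± 0.11 (adjusted p = 0.00107), with 0.81 beside 0.32. The EFEMP2 change was smaller in fibroblasts, by -0.26 ± 0.10 (adjusted p = 0.0291), with 0.38 beside 0.62, and this call was lost with DESeq2 size factors (-0.21, adjusted p = 0.0705), without a filter on low counts (-0.22) and in 8 of the 12 fits that left out 1 library. The libraries concerned were all 3 of MRC5_Mo, MRC5_coH196 replicates 2 and 3, H196_Mo replicates 1 and 3 and H196_Co replicate 2, with values from -0.25 to -0.17. For FBLN1 the interaction was 0.14 (adjusted p = 0.153), and it passed without MRC5_coH196 replicate 2 (0.24). For MFAP2 it was -0.34 (adjusted p = 0.0854), and it passed without H196_Mo replicate 3 (-0.53). FBN2 at 0.15 (adjusted p = 0.236) and FBLN5 at 0.70 (adjusted p = 0.114) did not pass. ELN and MFAP5 are not given, because H196 cells were at or near the limit of 3 counts.

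Ratios within a library do not depend on the scaling between libraries, and this comparison was chosen after seeing the data. The FPKM ratio of ELN to FBN1 was 0.286 to 0.416 in MRC5_Mo, 0.606 to 0.779 in MRC5_coH69 and 0.616 to 0.743 in MRC5_coH196. Both co-cultures lay above MRC5_Mo and overlapped each other, through a higher ELN in the one and a lower FBN1 in the other. The ratio of FBLN2 to FBN1 was 0.313 to 0.316 in MRC5_Mo, 0.289 to 0.326 in MRC5_coH69 and 0.822 to 0.876 in MRC5_coH196, while it was 0.784 to 1.04 in H196_Mo and 1.04 to 1.32 in H196_Co. Its mean in MRC5_coH196 was thus 2.67 times that of MRC5_Mo. The ratio of EFEMP2 to FBN1 was 3.44 ± 0.04 in MRC5_Mo, 3.54 ± 0.15 in MRC5_coH69 and 6.86 ± 0.38 in MRC5_coH196, and 3.19 ± 0.28 in H196_Mo and 5.0 ± 0.69 in H196_Co (SD, n = 3). FBN2 to FBN1 was 0.375 to 0.417 in MRC5_Mo and 0.555 to 0.559 in MRC5_coH196, so the 2 fibrillins changed by unequal amounts. In exact two-sided permutation tests of 15 such comparisons, every one without overlap gave p = 0.1, the smallest that 3 against 3 libraries allow (0.136 after Benjamini-Hochberg adjustment). The ELN to FBN1 ratio gave an exact p of 0.6 between the co-cultures.

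**Figure D3:**
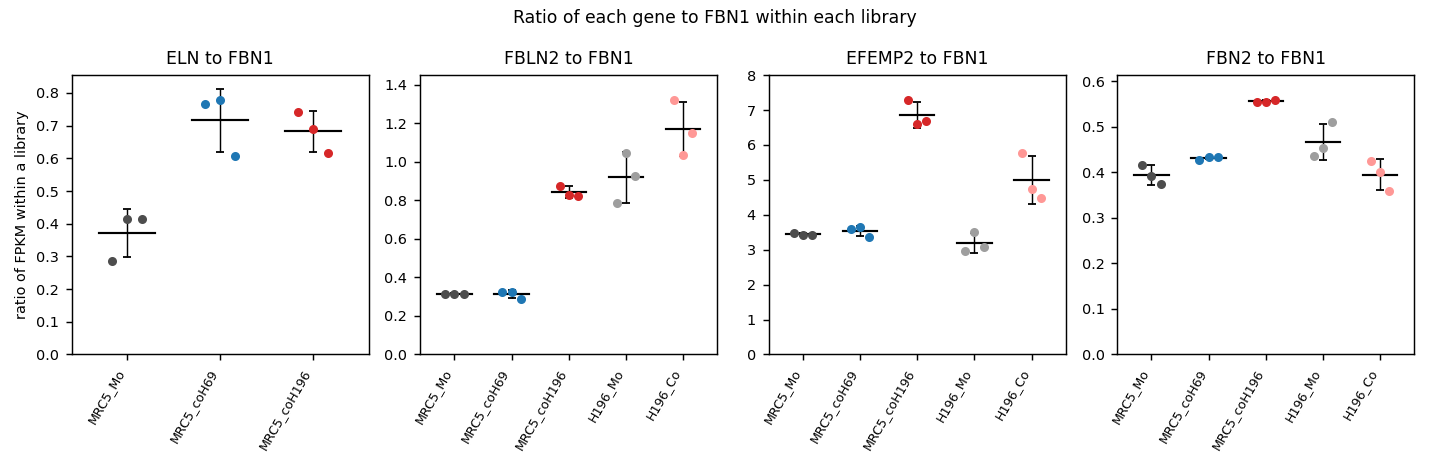
Ratio of the FPKM of ELN, FBLN2, EFEMP2 and FBN2 to that of FBN1 within each library (points), with the group mean (line) and SD (bars), on linear axes from 0; ELN is shown for MRC5 cells only. The MRC5_coH196 libraries lie above the MRC5_Mo libraries in all 4 panels, and the MRC5_coH69 libraries are raised clearly in the ELN panel.

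The genes that assemble and cross-link the fibers were read from the same fits, in a list of 22 genes. It held lysyl oxidases, latent TGF-β binding proteins (LTBPs), EMILINs, ADAMTS and ADAMTS-like proteins, other fibulins, FBN3, FURIN and FKBP10. In MRC5_coH196 against MRC5_Mo, 17 of the 18 tested genes were called, 14 higher and 3 lower, with a median log2 fold change of 0.54 against 0.00 for all genes, of which 74.3% were called, 37.2% higher and 37.1% lower. LOX, which oxidizes lysines of elastin and collagen for cross-linking, was at 104 to 114 FPKM in MRC5_Mo and at 613 to 665 in MRC5_coH196, a log2 fold change of 2.72 ± 0.05 (adjusted p = 1.23e-24 in edgeR's test). LOXL2 rose by 1.22 ± 0.04 and LOXL3 by 0.80 ± 0.05, both lysyl oxidase-like enzymes. FBLN7, a small fibulin, rose by 2.56 ± 0.11 from 55 to 68 counts to 310 to 355. ADAMTSL4 and ADAMTS10, proteins of microfibrils, rose by 1.60 ± 0.05 and 0.995 ± 0.14. The 3 that fell were EMILIN1 at -0.44, LOXL1 at -0.27 and FURIN, which processes profibrillin, at -0.15, and these were named after their values were seen. Library totals called 12 of the list higher and 4 lower, where 3467 genes of the table were called higher and 6295 lower. FBN1, the scaffold, and LOX, the cross-linker, thus moved in opposite directions in the same libraries.

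With H69, 5 of the 18 were called, all higher, against 6.70% of all genes, 3.78% higher and 2.93% lower. LOX rose by 0.47 ± 0.04, LOXL2 by 0.37 ± 0.04, LTBP3, an LTBP, by 0.32 ± 0.04, THSD4, an ADAMTS-like microfibril protein, by 0.22 ± 0.05 and LOXL4 by 0.21 ± 0.05. The call of LOXL4 was lost without MRC5_Mo replicate 1 (0.20), MRC5_Mo replicate 3 (0.20) or MRC5_coH69 replicate 1 (0.17), and that of THSD4 without MRC5_Mo replicate 2 (0.19). Between the partners 16 of 18 were called, 13 higher with H196, LOX by 2.25 ± 0.05. Of all genes 72.3% were called there, 35.7% higher and 36.6% lower. Library totals called 11 of the list higher and 3 lower, where 3304 genes of the table were called higher and 6291 lower. In H196_Co, 4 of the 15 tested genes were called, all higher, a share near the 19.8% of all genes, of which 12.0% were higher and 7.78% lower. LOXL2 rose by 0.73 ± 0.07 and ADAMTSL4 by 0.52 ± 0.09. LOXL3 at 0.30 (adjusted p = 0.0492) was not called without any 1 of the 6 libraries (0.24 to 0.35). FURIN at 0.27 was not called with library totals (0.20), nor without H196_Mo replicate 1 (0.19), H196_Mo replicate 3 (0.27) or H196_Co replicate 3 (0.25).

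Of 15 genes of the elastin receptor and of elastin breakdown, 10 were tested in MRC5 cells. With H196, 8 were called, 5 higher and 3 lower, with a median log2 fold change of 0.25, and this share is near the 74.3% of all genes. MMP2, a gelatinase that cleaves elastin, rose by 0.49 ± 0.05 from 217 to 242 FPKM in MRC5_Mo to 272 to 292 in MRC5_coH196. GLB1 and CTSA, 2 genes of the elastin receptor complex, rose by 0.38 ± 0.05 and 0.27 ± 0.05, and NEU1, the third, fell by 0.30 on the log2 scale. With library totals CTSA at 0.09 and CTSK at 0.06 were not called, and the list had 3 genes higher and 4 lower. CTSK, an elastolytic cathepsin, was called at 0.24 ± 0.08, but not without MRC5_Mo replicate 2 (0.16), MRC5_Mo replicate 3 (0.20) or MRC5_coH196 replicate 1 (0.20), and was at 0.36 without MRC5_Mo replicate 1. CTSS, another, was at 16 to 52 counts in these groups and lost its call at -0.58 in 4 of the 9 fits with 1 library left out: without MRC5_Mo replicate 1 (-0.29), MRC5_coH69 replicate 1 (-0.58), MRC5_coH196 replicate 1 (-0.57) or MRC5_coH196 replicate 2 (-0.38). With H69, edgeR and limma called 0 of the 10 and DESeq2 called 1. MMP2 at 0.15 ± 0.05 (adjusted p = 0.0502 in edgeR's test) was the 1 gene with an unadjusted p under 0.05. The count was 1 without MRC5_Mo replicate 1, MRC5_coH196 replicate 2 or MRC5_coH196 replicate 3, which share the fit. In H196_Co, 3 of 9 were called, against 19.8% of all genes, 2 higher and 1 lower, and with library totals 1 each way. MMP14, a membrane metalloproteinase, rose by 0.69 ± 0.07 and CTSL by 0.26 ± 0.08, while NEU1 fell by 0.47 on the log2 scale. CTSL was not called with library totals (0.18), nor without H196_Mo replicate 1 (0.20), H196_Co replicate 1 (0.21) or H196_Co replicate 3 (0.25).

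**Figure D4:**
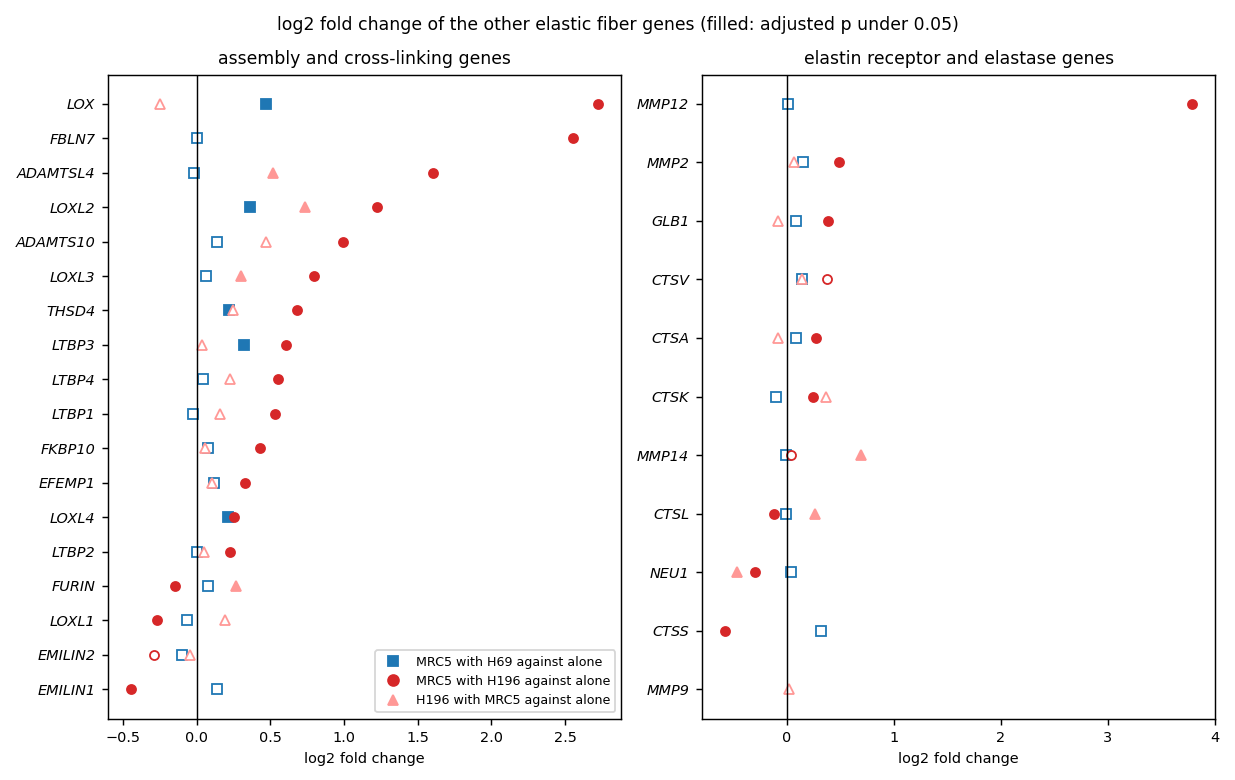
log2 fold change of the tested genes of the assembly list (left) and the receptor and breakdown list (right) in MRC5 cells with H69 (squares), MRC5 cells with H196 (circles) and H196 cells with MRC5 (triangles), each against the cells alone, filled where the adjusted p was under 0.05. LOX and FBLN7 are the furthest to the right in the left panel, at 2.72 and 2.56 with H196. In the right panel MMP12 is the furthest to the right, at 0 to 4 counts in MRC5_Mo and 15 to 21 in MRC5_coH196.

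The genes whose log2 CPM followed ELN most closely over the 9 MRC5 libraries, among 9227 genes with a mean of at least 10 CPM, were COP1, RC3H2 and CSRP1, with Pearson r of 0.955, 0.951 and 0.935. For FBN1 they were PCDH7, RIPK1 and FDX1, at 0.999, 0.998 and 0.998. The libraries share their groups, and a gene that separates the groups as FBN1 does has a high r, so 1 in 100 of these genes reached 0.989 with FBN1 and 0.684 with ELN. Over the 6 H196 libraries PRKAR2A was closest to FBN1, with r of 0.996, where 1 in 100 of 9840 genes reached 0.888. FBN1 was at 34.7 CPM in H196_Co replicate 1 and at 40.1 to 43.6 CPM in the other H196 libraries, so that r may rest largely on 1 library. These values describe likeness and were not tested.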

How the data were processed

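Each table was deposited by the authors for one cell line. They cleaned reads of oligo(dT)-selected mRNA, sequenced on the BGIseq-500, with SOAPnuke, then mapped them to the genome (GRCh38.p13) by HISAT and to gene sequences by Bowtie2. The submitters' processing notes name HISAT2 2.1.0, Bowtie2 2.3.4.3 and RSEM 1.3.1, without roles. The deposited expected counts are estimates of reads per gene, which can split a read between genes, are not normalized, and were whole numbers in 93.7% (MRC5) and 92.1% (H196) of values. FPKM values are the authors' own, scaled for gene length and library size. The authors' own fold changes, p-values and group means, and 30 other per-library columns, were not used.

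Expected counts were rounded and tested in R 4.3.3 with edgeR 4.0.16 (TMM scaling, filterByExpr, quasi-likelihood fit, two-sided). The 9 MRC5 libraries were fitted together, as were the 6 H196 libraries. The interaction used the 12 libraries without MRC5_coH69 and genes of both tables. Called genes had a Benjamini-Hochberg adjusted p under 0.05 over all tested genes. The SE of a log2 fold change is its size divided by the square root of F. CPM values are scaled by TMM factors, except where library totals are named. Alternatives were DESeq2 1.42.0, limma 3.58.1 on log2(FPKM + 1) and log2(FPKM + 0.1), other scalings, filters and fold limits, fits of the compared groups alone, a replicate block, and each library left out. The tests were tried on simulated counts. No pair of libraries of a group agreed within sampling noise (chi-square per degree of freedom 1.89 to 10.8).

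The 10 genes and the lists were chosen with earlier results of these data known. Beyond the 10 genes, those named are the called genes of each list, up to 6 per list and comparison by size of change, with a mean of at least 1 CPM, and the genes most like ELN and FBN1. Cell type markers were named after their values were seen. Partner markers had at least 20 CPM in every library of one line alone and under 0.5 CPM in every library of the other.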

Additional observations from a re-analysis of the deposited data

Results flagged for a closer look

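Fibroblasts and H196 cells changed differently in co-culture for 3 of the 9 genes tested, by the interaction test in edgeR. The change of FBN1 in fibroblasts minus that in H196 cells was -0.62 on the log2 scale (adjusted p = 6.23e-06), and it stayed between -0.73 and -0.56 with any 1 library left out. For FBLN2 the difference was 0.47 (adjusted p = 0.00107), between 0.37 and 0.56 with 1 library left out. For EFEMP2 it was -0.26 (adjusted p = 0.0291), between -0.33 and -0.17, and the call was kept in 4 of those 12 fits. The share of all genes called in this test was 49.9%, which is above 3 of 9.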

How the results depend on the processing

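With any 1 of the other scalings, filters, tools or designs, the 4 fibulins that rose and FBN1 and FBN2 that fell in MRC5_coH196 kept their direction and their calls against MRC5_Mo, as did ELN in MRC5_coH69 and EFEMP2 and MFAP2 in H196_Co. Without a fold limit 8, 3, 7 and 5 of the 10 genes count as DEGs (MRC5_coH196 and MRC5_coH69 against MRC5_Mo, MRC5_coH196 against MRC5_coH69, H196_Co against H196_Mo), and with a limit of 1 there are 0 in each. Between the co-cultures FBLN5 turned to -0.051 with library totals and to -0.054 and -0.055 in the limma fits, and was not called there. MFAP2 turned to -0.13 and -0.14 in limma with pseudocounts of 1 and 0.1, and was called lower in both limma fits. In H196_Co the number of called genes of the 10 went from 5 to 3 with library totals, 3 with DESeq2 and 2 in both limma fits, with 0 DEGs by library totals and limma, and that of the assembly list from 4 to 2 with library totals and limma. With H69, 1 gene of the breakdown list was called, against 0, with no filter, with at least 10 counts in every library, with DESeq2 and with only the groups compared. In that comparison the calls over all genes went from 859 to 424 and 394 in limma.

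Leaving out 1 library gave 1 to 4 called genes of the 10 with H69 and 2 to 5 in H196_Co, with 0 to 2 DEGs in H196_Co. The assembly list had 2 to 5 called genes in H196_Co and the breakdown list 0 to 1 with H69. Over all genes there were 384 to 1015 calls with H69 and 1559 to 2723 in H196_Co. In H196_Co the fewest genes were called without H196_Mo replicate 3 or H196_Co replicate 3 (for the assembly list also H196_Mo replicate 1), and with H69 without MRC5_Mo replicate 2 or 3 or MRC5_coH69 replicate 1. Why single libraries matter was not tested.

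Libraries with the same replicate number did not deviate together (correlations of -0.12 to 0.08 in MRC5 and -0.15 to 0.03 in H196 cells), so no pairing by number was seen. These few correlations cannot show how the libraries were prepared. With a replicate block FBN2 in H196_Co was at -0.29 (adjusted p = 0.0694 in edgeR) and LOXL3 at 0.30 (adjusted p = 0.0715), both no longer called, and MFAP4 passed between the co-cultures at -0.13 (adjusted p = 0.0358). It changed no other call.

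With markers of at least 50 and under 0.2 CPM, the mean share of MRC5 markers in H196_Co was 0.0141% in place of 0.0535%. For H196 markers it was 0.311% in place of 0.582% in MRC5_coH196. In MRC5_coH69, where H196 cells were absent, H196 markers were at 0.0174% in place of 0.124%, which says nothing of RNA from H69 cells. Counting unlisted genes as 0, an alternative added after seeing the data, gave 0.0427% in H196_Co. Depth limits MFAP5 in both lines and ELN and FBLN5 in H196 cells.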

Other observations

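MMP12, known as macrophage elastase, was too low to be named by the rule for list genes and was singled out after its values were seen. It had 0 to 4 counts in MRC5_Mo, 0 to 2 in MRC5_coH69 and 15 to 21 in MRC5_coH196, and the libraries of MRC5_coH196 lay above all others. Over the 9 MRC5 libraries, which fall into 3 groups, the log2 CPM of FBN1 ran opposite to that of FBLN2 (Pearson r = -0.966), FBLN1 (-0.873) and EFEMP2 (-0.873), while FBLN2 and EFEMP2 ran together (0.961), values that largely describe the differences between the groups and were not tested.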
